A study of Mus musculus with 2148 samples.

Results

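The long noncoding RNAs Neat1, Malat1, Kcnq1ot1, Snhg11, Snhg1 and Gas5 were followed in single mouse thymic epithelial cells (TECs). They were chosen by gene symbol, read through the Ensembl identifiers of the count table, and are 6 of its 48437 genes. All 6 had reads.

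All animals were C57BL/6, and live TECs negative for CD45 and positive for EpCAM were sorted from digested thymus into 96-well plates. Cortical cells (cTECs) were taken as Ly51+, and medullary cells (mTECs) as Ly51- with high (mTEChi) or low (mTEClo) MHC class II. The adult wild-type (WT) groups were cTECs from males of 6 weeks, mTEChi cells from males of 4, 5 and 6 weeks and females of 4 weeks, and mTEClo cells from males of 4, 5 and 8 weeks. The Aire-KO groups, labelled AireKO, were mTEChi and mTEClo cells from males of 5 weeks lacking Aire. The newborn WT groups, aged 1 day and of unknown sex, were cTECs, mTEChi and mTEClo cells. The smallest of the 8 groups held 77 cells (adult cTEC) and the largest 620 (adult WT mTEChi). Mice were not numbered, so cells of a group with the same age and sex were summed into 1 pool that may hold several mice. This gave 4 pools of adult WT mTEChi, 3 of adult WT mTEClo and 1 for each other group, 13 in all. Sums per experimental batch, as numbered in the labels, served as technical units. No knockout of any of the 6 RNAs was studied.

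Neat1 and Malat1 are neighbouring, mostly unspliced nuclear RNAs: Neat1 is the scaffold of paraspeckles, bodies built with RNA-binding proteins such as Sfpq and Nono, and Malat1 gathers in nuclear speckles with splicing factors such as Son. Kcnq1ot1 is a very long RNA read from the paternal chromosome on the opposite strand of the potassium channel gene Kcnq1, and it silences neighbouring imprinted genes in cis. Snhg1, Gas5 and Snhg11 are host genes that carry small nucleolar RNAs (snoRNAs) in their introns. The spliced Gas5 and Snhg1 RNAs are short-lived because they are degraded by nonsense-mediated decay during translation. mTEChi cells are the main cells that express Aire, the factor that turns on tissue-restricted genes for tolerance, whereas cTECs support early thymocytes and carry the proteasome subunit Psmb11.

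In the GRCm38 annotation, Neat1 (chr19:5824708-5845478, minus strand) and Malat1 (chr19:5795690-5802672, minus strand) were lincRNA genes of 20771 and 6983 exonic bases. Kcnq1ot1 (chr7:143203458-143296549, minus strand) was annotated as an unspliced antisense gene of 93092 bases, wholly within the Kcnq1 span (chr7:143106362-143427042, plus strand). Reads were counted without strand, so unspliced Kcnq1 reads inside that span cannot be told apart from Kcnq1ot1, and an exon of Kcnq1 also lies in it. Snhg11 (chr2:158375638-158386145, plus strand) was classed as protein coding in that annotation. Snhg1 (chr19:8723475-8726443, plus strand) held 8 annotated snoRNA genes and Gas5 (chr1:161034422-161038539, plus strand) held 10, all overlapping exons of the host models. None of these 18 had a row of its own here, so a host value may include reads of its snoRNAs. The Gas5 span also overlapped Zbtb37 on the other strand, outside the exons of both.

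Host genes of snoRNAs and genes of the translation machinery are known to start with a C followed by a run of pyrimidines (the TOP motif). The starts of Gas5 and Snhg1 are therefore printed 5′ to 3′ from RefSeq (GRCm38.p6, plus strand), from 10 bases before the first transcribed base, with that base and the next 4 in capitals:
Gas5 at chr1:161034591-161034620: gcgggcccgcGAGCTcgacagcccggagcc
Gas5 at chr1:161035156-161035185: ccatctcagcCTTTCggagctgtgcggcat
Snhg1 at chr19:8723477-8723506: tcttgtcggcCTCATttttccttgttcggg
The motif searched was a C at the first base followed by 4 letters each C or T, on the transcribed strand only. The second Gas5 start held it, and the other Gas5 start and the Snhg1 start did not. Of 32851 RefSeq starts, 2.51% held these letters, against 3 of 12 starts of the translation genes matched from a fixed list of 20. Of the 6 RNAs, 5 matched the table with 6 starts, of which 1 held the motif. This describes letters at annotated starts and nothing about use of either start.

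The cells held 1424841034 reads on genes, and the group medians ran from 532926 to 862537 reads per cell. Aire, the deleted gene, was at 1467.3 ± 404.7 CPM (reads of the gene per 1000000 reads on genes; SD, n = 4 pools) in adult WT mTEChi against 26.1 CPM in the Aire-KO mTEChi pool, and at 34.2 ± 7.13 CPM (n = 3) against 0.153 CPM in mTEClo. The cTEC pools carried the 7 cTEC markers at a summed 6426 and 6487 CPM, and the adult mTEC pools at 150.4 to 760.6 CPM. The newborn mTEClo pool stood apart at 2681 CPM, so its label and its markers overlap. In adult WT mTEClo, 59.1% of the cells of the 4-week pool and 85.1% of the 5-week pool were positive for tuft cell markers (at least 50% of 8 genes with 5 or more reads) against 8.29% of the 8-week pool. The 5-week mTEChi pool held 12 cells. Values are CPM in the summed cells of a pool. In such sums fewer cells of a type and less RNA per cell cannot be told apart.

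Over all cells Malat1 was the most abundant gene of the table by CPM, with 5595 CPM or 0.559% of all reads, and Neat1 was at rank 8 with 1563.01 CPM. Kcnq1ot1 had 476.1 CPM, Gas5 98.3, Snhg11 69.8 and Snhg1 45.1 CPM. Per kilobase of exon the order changed: Malat1 had 801.2 CPM per kb (rank 7), Neat1 75.2, Gas5 26.1, Snhg1 15.2, Snhg11 8.20 and Kcnq1ot1 5.11 CPM per kb. Kcnq1ot1, which followed Neat1 by CPM, was therefore the lowest of the 6 per length. This protocol primes with a further primer set, named NSR, as well as oligo(dT) primers, so RNAs without a poly(A) tail are counted too.

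**Figure D1:**
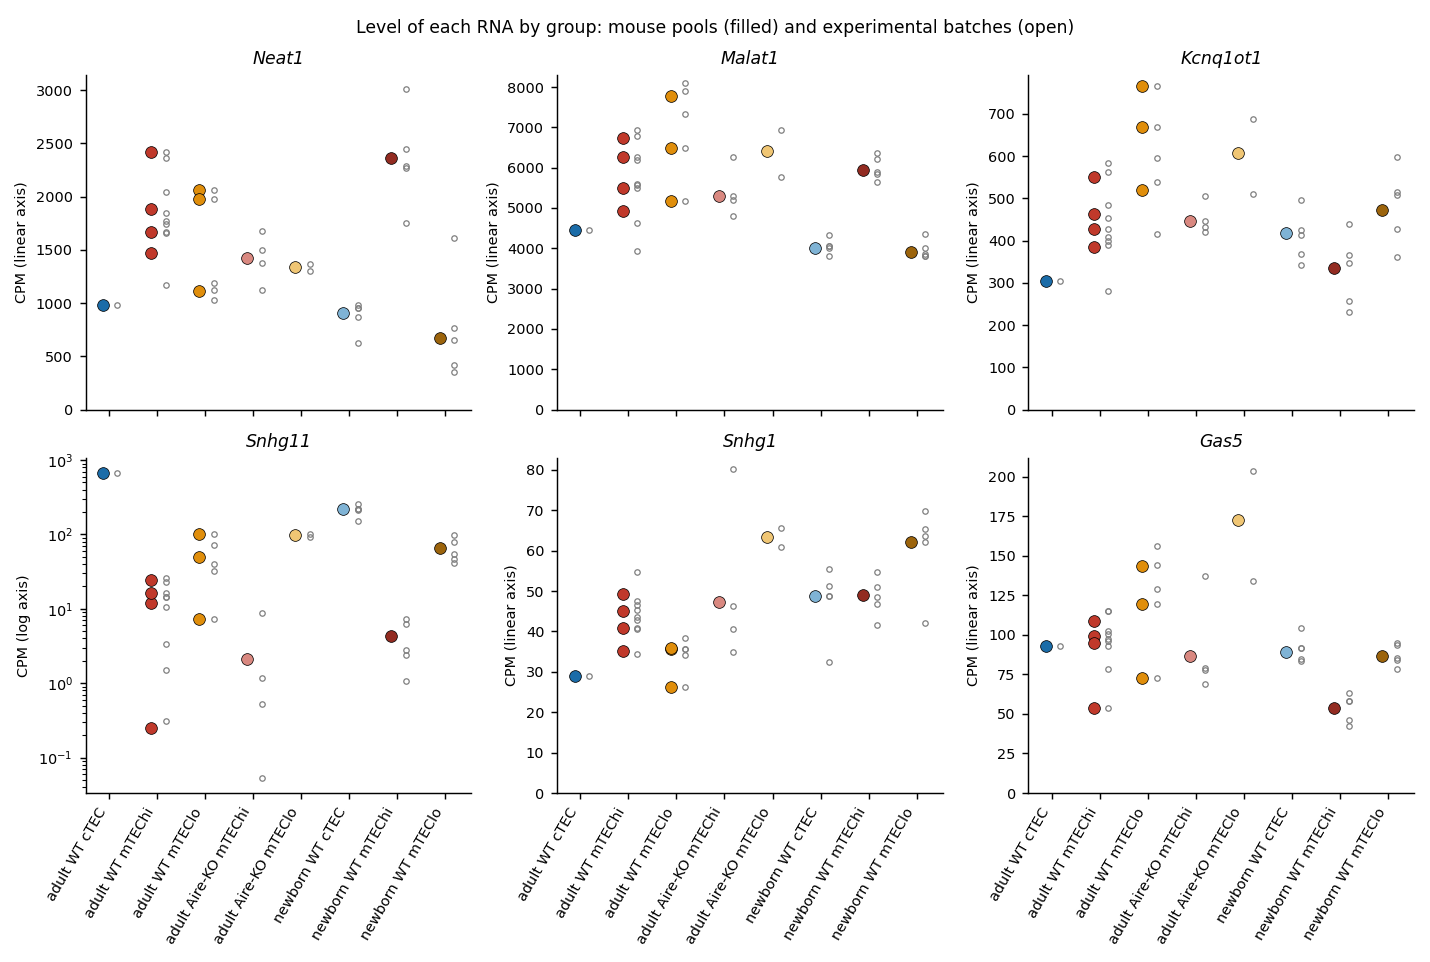
Level of each RNA in CPM (linear axes, log axis for Snhg11) in the 8 groups: filled points are mouse pools and open points experimental batches. Snhg11 was high in both cTEC groups (665.5 and 219.5 CPM), whereas Neat1 was lowest in the newborn mTEClo pool (672.6 CPM) and high in newborn mTEChi (2366 CPM).

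Neat1 was lower in the cTECs of both ages than in any adult mTEC pool. The adult cTEC pool had 984.7 CPM and the newborn cTEC pool 906.9 CPM. The adult WT mTEChi pools had 1886.3, 2421, 1470.1 and 1666.7 CPM (1860.98 ± 410.1, SD, n = 4), and the adult WT mTEClo pools 2058, 1974.5 and 1116.6 CPM (1716.5 ± 521.1, n = 3). The adult mTEC pools overlapped, with the 8-week mTEClo pool lowest. The Aire-KO pools, at 1423.3 CPM in mTEChi and 1334.3 CPM in mTEClo, lay just below the WT range in the first sort and inside it in the second. Newborn mTEChi had 2366 CPM and newborn mTEClo 672.6 CPM, the highest but 1 and the lowest of the 13 pools. From high to low the groups ran newborn mTEChi, adult WT mTEChi, adult WT mTEClo, Aire-KO mTEChi, Aire-KO mTEClo, adult cTEC, newborn cTEC and newborn mTEClo. Neighbours down to Aire-KO mTEClo overlapped in their pools or batches, as did newborn cTEC and newborn mTEClo, while adult cTEC had 1 batch, below both Aire-KO mTEClo batches (1297.6 to 1364.2 CPM).

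Within newborn thymus, Neat1 rose in mTEChi over mTEClo in every one of the 5 experimental batches that held all 3 sorts. The mTEChi sums were 2445, 2287, 2265, 1754.8 and 3013 CPM for batches 16 to 20, and the mTEClo sums 1609.1, 356.6, 416.6, 769.1 and 656.6 CPM. The sorts did not overlap, and the highest mTEClo value came from batch 16, which held 11 mTEClo cells. The fitted difference within batches was 1.89 on the log2 scale (SE 0.29, 3.72-fold, adjusted p = 0.000508, edgeR quasi-likelihood test over 23349 genes). A gene was called at an adjusted p under 0.05 and at least 2-fold. By this rule 19.9% of the genes tested were called higher and 12% lower in newborn mTEChi. Neat1 and Snhg11 were the 2 of the 6 RNAs that were called, 1 in each direction. The test measures the spread between batches of cells that may share mice. Markers of other cell types also differed between these sorts. The 8 stromal markers summed to 479.8 CPM in newborn mTEChi and 138.7 CPM in mTEClo, and the 8 thymocyte markers to 116.4 and 29.4 CPM, with none of either list at zero. Of these, 3 stromal (among them Col1a1) and 5 thymocyte markers were called higher in mTEChi, and their part in the Neat1 difference was not tested. The newborn cTEC sums, 951.3, 982.4, 622.8, 956.6 and 868.6 CPM, overlapped those of mTEClo, and the fitted difference of 0.50 (SE 0.28) was not called.

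Malat1 rose in the same direction by less. The newborn mTEChi batches ranged from 5641 to 6370 CPM, above the mTEClo range of 3802 to 4350 and the cTEC range of 3813 to 4328 CPM. It rose by 0.70 on the log2 scale over mTEClo (SE 0.07, adjusted p = 3.75e-05, edgeR), below 2-fold. At any fold, 26.3% of genes rose and 22.8% fell in this comparison, and of the 6 RNAs Neat1 and Malat1 rose and Snhg11, Gas5 and Kcnq1ot1 fell.

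**Figure D2:**
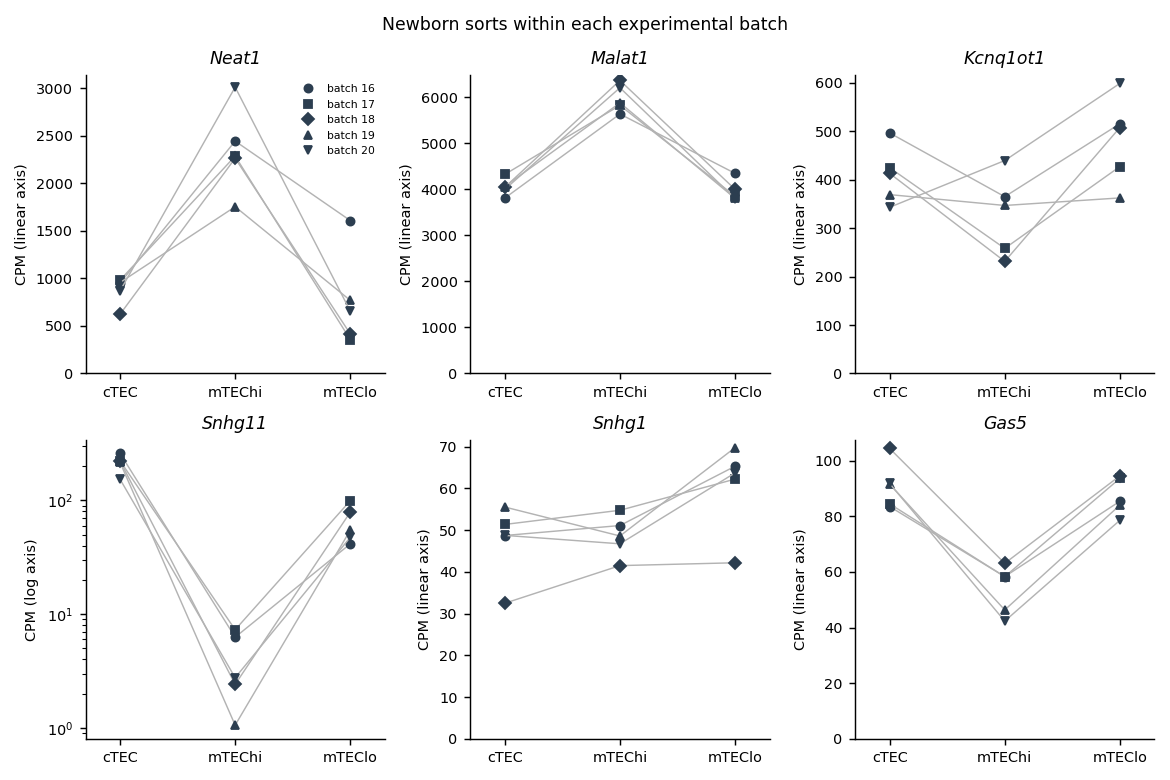
Level of each RNA (CPM, linear axes, log axis for Snhg11) in newborn cTEC, mTEChi and mTEClo, 1 symbol and line per experimental batch. Neat1 and Malat1 peaked in mTEChi and Snhg11 and Gas5 were lowest there in all 5 batches.

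The RNAs of genes coding for paraspeckle proteins went the other way from Neat1 in the same comparison, and proteins were not measured. Of 16 genes on the list, 15 fell at any fold in newborn mTEChi and none by 2-fold (edgeR, 15 at an unadjusted p under 0.05), beside 22.8% of all genes, with a median of -0.61 against 0.06 for all genes. Sfpq fell by 0.68 on the log2 scale (SE 0.08, adjusted p = 7.71e-05). Of 12 genes of nuclear speckle proteins, 10 fell at any fold and none by 2-fold (10 at an unadjusted p under 0.05), with a median of -0.34. In adults, 6 of the 16 paraspeckle and 3 of the 12 speckle genes were lower in mTEChi than in mTEClo at any fold, beside 5.75% of all genes, with medians of -0.64 and -0.46 against 0.27 for all genes, and none was called at 2-fold (edgeR, 11 and 7 at an unadjusted p under 0.05). Son, the gene of a speckle core protein, fell by 0.60 there (SE 0.13, adjusted p = 0.0231).

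In adults no difference between the sorts passed the test over pools for Neat1 or Malat1. Malat1 had 4449 CPM in cTECs, 5488, 6260, 4917 and 6738 CPM in the mTEChi pools (5851 ± 808.001, n = 4) and 5185, 6489 and 7771 CPM in the mTEClo pools (6482 ± 1293.4, n = 3). The mTEChi and mTEClo pools overlapped, and the cTEC pool lay below all 7. The cTEC pool was 1 batch, and its value lay inside the range of the WT mTEChi batches (3934.6 to 6928.3 CPM). The fitted difference of cTECs from the mTEC mean was -0.69 for Neat1 (SE 0.35) and -0.32 for Malat1 (SE 0.28), and the median of all genes was itself -0.32. Between mTEChi and mTEClo the difference was -0.09 for Neat1 (SE 0.24) and -0.38 for Malat1 (SE 0.19). Without tuft-positive cells the Neat1 difference became 0.45, in the opposite direction, and with experimental batches as units it was 0.24. Over batches Malat1 was lower in mTEChi than in mTEClo (-0.40, SE 0.11, adjusted p = 0.0039, edgeR), below 2-fold. At any fold, 28.2% of genes were higher and 16.7% lower over batches.

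In mTEClo, newborns had less Neat1 and Malat1 than every adult pool. The newborn values of 672.6 and 3901 CPM lay below the lowest adult ones of 1116.6 and 5185 CPM. The fitted differences were -1.43 for Neat1 (SE 0.39, 2.69-fold lower, unadjusted p = 0.00572, adjusted p = 0.278, edgeR) and -0.84 for Malat1 (SE 0.31, unadjusted p = 0.0246, adjusted p = 0.422, edgeR). Among 40148 genes tested on the 13 pools, 0% were called in either direction by edgeR. At an unadjusted p under 0.05, 5.73% were higher and 4.38% lower in newborns, and DESeq2 called 1.85% higher and 2.26% lower. Of the 6 RNAs edgeR called 0, with 3 at an unadjusted p under 0.05 (Neat1 and Malat1 lower, Snhg1 higher), and DESeq2 called 0. With experimental batches in place of pools, Neat1 was called lower in newborn mTEClo (-1.09, SE 0.26, adjusted p = 0.00292), as were 8.05% of all genes. In mTEChi the newborn difference was 0.38 for Neat1 (SE 0.34), 0.06 for Malat1 (SE 0.28), -0.41 for Kcnq1ot1 (SE 0.26), -0.69 for Gas5 (SE 0.49), 0.24 for Snhg1 (SE 0.33) and -1.61 for Snhg11 (SE 1.70). There edgeR over pools called 0% of genes and 0 of the 6 RNAs, with 1.58% of genes higher, 0.503% lower and none of the 6 at an unadjusted p under 0.05, and DESeq2 called 9 genes higher, 20 lower and 0 of the 6. Over batches Gas5 was lower in newborn mTEChi (-0.85, SE 0.18, adjusted p = 0.00585, edgeR), below 2-fold. At any fold, 1.77% of genes were higher and 3.42% lower over batches.

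The difference between the newborn effects in mTEChi and in mTEClo was tested directly as an interaction, a contrast added after the data were seen. For Neat1 it was 1.81 (SE 0.50, unadjusted p = 0.0063, adjusted p = 1.00, edgeR over pools) and 1.40 over batches (SE 0.34, adjusted p = 0.0113). For Malat1 it was 0.90 over pools (SE 0.41, unadjusted p = 0.0571) and 0.99 over batches (SE 0.16, adjusted p = 0.00027). Over batches 2.31% of genes were called higher and 2.91% lower in this contrast. Over pools edgeR called 0 genes, while an unadjusted p under 0.05 held for 2.12% in the higher and 1.75% in the lower direction, and DESeq2 called 0.237% higher and 0.301% lower.

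The newborn and adult mTEClo pools also differed in other markers. Cycling-positive cells were 37.9% of the newborn mTEClo cells and 0% of each adult WT mTEClo pool, while the summed cTEC markers were 2681 CPM in newborn mTEClo and 150.4 to 472.98 CPM in the adult pools. Without cycling-positive cells the Neat1 difference in mTEClo was -0.99 (SE 0.35, adjusted p = 0.484, edgeR), and without tuft-positive cells -0.88 (SE 0.42, adjusted p = 0.609). For Malat1 it was -0.73 (SE 0.28) and -0.76 (SE 0.35), against -0.84 with all cells. The newborn difference between mTEChi and mTEClo was 1.65 without cycling-positive cells (SE 0.38, adjusted p = 0.00542). The part of the cTEC markers in these values was not tested.

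Kcnq1ot1 was highest in mTEClo among adults. The cTEC pool had 305.4 CPM, the WT mTEChi pools 462.03, 427.6, 384.6 and 551.1 CPM (456.3 ± 70.7, n = 4), and the WT mTEClo pools 766.6, 668.5 and 519.4 CPM (651.5 ± 124.5, n = 3). Among the pools, only the 6-week mTEChi pool and the 8-week mTEClo pool overlapped, and the cTEC pool lay below all mTEC pools. By batch the sorts overlapped more, at 280.5 to 583.4 CPM in WT mTEChi and 416.2 to 766.6 CPM in WT mTEClo. The cTEC value, from 1 batch, lay inside the mTEChi batch range. In mTEChi Kcnq1ot1 was lower than in mTEClo by -0.73 on the log2 scale (SE 0.17, 1.66-fold, adjusted p = 0.0297, edgeR). At any fold 7.83% of genes rose and 5.75% fell in this comparison, and at 2-fold 7.59% and 4.47%. At any fold Kcnq1ot1 was the only one of the 6 RNAs to pass. At 2-fold 0 of the 6 passed in edgeR and 0 in DESeq2, whose share of all genes is not given here. At an unadjusted p under 0.05 it was again Kcnq1ot1 alone, beside 21.3% of genes higher and 13.6% lower. Without tuft-positive cells its difference was -0.44 (SE 0.17, adjusted p = 0.134), and without cycling-positive cells -0.65 (SE 0.18, adjusted p = 0.0522).

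Against the mTEC mean the adult cTEC value of Kcnq1ot1 differed by -0.67 (SE 0.26, unadjusted p = 0.0291, adjusted p = 0.322, edgeR). In newborns the order was less clear: cTEC batches had 342.96 to 496.4 CPM, mTEChi batches 231.3 to 439.4 and mTEClo batches 362.3 to 598.6 CPM, and all 3 ranges overlapped. Within batches it was lower in mTEChi than in mTEClo by -0.46 (SE 0.17, adjusted p = 0.046, edgeR). The newborn pools had 418.9, 335.03 and 473.4 CPM in cTEC, mTEChi and mTEClo. The Aire-KO pools had 446.7 CPM in mTEChi, inside the WT range, and 607.8 CPM in mTEClo, also inside it.

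Kcnq1, in whose span Kcnq1ot1 lies, had 39.9 ± 6.32 CPM in adult WT mTEChi (SD, n = 4), 159.5, 119.5 and 18.9 CPM in the WT mTEClo pools and 19.6 CPM in adult cTECs. Its 2 high mTEClo pools were those rich in tuft-positive cells. In every one of the 13 pools, Kcnq1ot1 was higher in cells with 5 or more Kcnq1 reads than in cells with none, by 1.65-fold in newborn cTECs to 4.85-fold in the 6-week mTEChi pool. In the 4-week mTEClo pool it was 834.1 CPM in 52 such cells against 487.5 CPM in 13 cells without Kcnq1 reads. Some splits were smaller, with 5 such cells in newborn cTECs and 6 against 4 cells in the 5-week mTEChi pool. The 5-week mTEClo pool held 9 cells without Kcnq1 reads. Cells without any Kcnq1 read still held 175.4 to 487.5 CPM of Kcnq1ot1. The mean Spearman correlation of both RNAs over the cells of a group was 0.28 (8 groups, 0.15 to 0.41), a description in which both share the cell's depth and the locus.

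**Figure D3:**
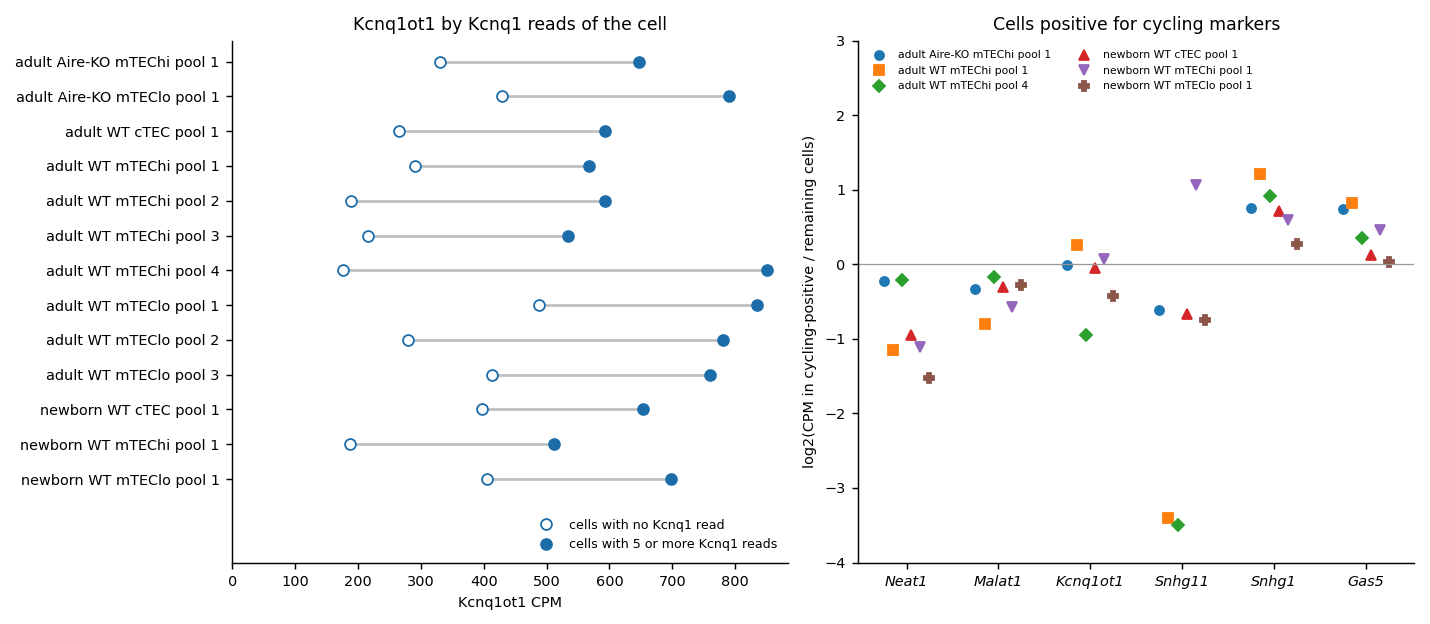
Left, Kcnq1ot1 CPM in cells without Kcnq1 reads (open) and with 5 or more (filled) for each of the 13 pools, where some points rest on fewer than 10 cells. Right, log2 ratio of each RNA's CPM in cycling-positive cells over the remaining cells in the 6 pools with at least 10 cells of both kinds. Kcnq1ot1 was higher in the filled point of every pool, and Neat1 and Malat1 lay below 0 and Snhg1 and Gas5 above 0 in all 6.

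Of 12 listed genes of the Kcnq1 imprinted domain, 2 were called lower in adult mTEChi than in mTEClo, where 4.47% of all genes were called lower: Trpm5, a cation channel of tuft cells and 1 of the tuft markers used here (-4.89, SE 1.00, adjusted p = 0.0195, edgeR), and Cd81, a tetraspanin (-1.33, SE 0.34, adjusted p = 0.0396). In newborns, 3 were called higher in mTEChi, with Tspan32 at 2.75 (SE 0.86), Kcnq1 at 2.17 (SE 0.82) and the transporter Slc22a18 at 1.04 (SE 0.28), and 2 lower, with the transcription factor Ascl2 at -2.09 (SE 0.42) and Cd81 at -1.42 (SE 0.19), beside 19.9% of all genes higher and 12% lower. Kcnq1 and Kcnq1ot1 thus differed in opposite directions between the newborn mTEC sorts. Cdkn1c, a cell cycle inhibitor and a known target of silencing by this domain, was called lower in newborn cTECs than in newborn mTEClo (-1.38, SE 0.31, adjusted p = 0.0246, edgeR).

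Among the 6 RNAs, Snhg11 had the largest fitted difference between adult cTECs and mTECs. Adult cTECs had 665.5 CPM. The adult WT mTEChi pools had 12.1, 16.4, 0.250 and 24.1 CPM (13.2 ± 9.96, n = 4), and the mTEClo pools 7.24, 100.0 and 49.5 CPM (52.2 ± 46.4, n = 3). The cTEC pool stood above all mTEC pools, the mTEC sorts overlapped, and the lowest value came from the pool of 12 cells. The fitted difference of cTECs from mTECs was 4.82 on the log2 scale (SE 1.10, 28.2-fold, unadjusted p = 0.00203, adjusted p = 0.103, edgeR), so it was not called. In this comparison edgeR called 0.476% of genes higher and 0.219% lower, and 0 of the 6 RNAs, while DESeq2 called 1 of the 6. At an unadjusted p under 0.05, Snhg11 was higher and Kcnq1ot1 lower, beside 6.52% of genes higher and 5.87% lower. Snhg11 was called over batches (4.86, adjusted p = 0.000451, with 2.67% of genes higher), by DESeq2 (4.82, adjusted p = 0.0275) and by limma with equal weight per cell (6.38, adjusted p = 0.000871). The shares of all genes called by DESeq2 and limma are not given here, so their calls stand without that background. The adult cTECs are 1 pool from 1 experimental batch, and that pool also had the highest summed thymocyte markers (8 of 8 detected, 408.3 CPM against 29.4 to 172.6 CPM in the other pools), whose part was not tested.

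In newborns, where 5 batches held all sorts, Snhg11 was again highest in cTECs. The cTEC sums ranged from 153.6 to 259.03 CPM, the mTEClo sums from 41.5 to 99.4 CPM and the mTEChi sums from 1.06 to 7.30 CPM, and the 3 ranges did not overlap. Within batches it was higher in cTECs than in mTEClo by 1.92 (SE 0.35, 3.78-fold, adjusted p = 0.00941, edgeR), where 2% of genes were called higher and 1.66% lower, and it was the only one of the 6 RNAs called. At any fold it was also alone, beside 5.95% of genes higher and 2.37% lower. Without batch 20 the estimate was again 1.92, with an adjusted p of 0.0537. In mTEChi it was lower than in mTEClo by -4.03 (SE 0.40, 16.4-fold, adjusted p = 3.23e-05). Newborn mTEClo also held the cTEC gene Psmb11, with 85.5% of cells at 5 or more reads and 283.7 CPM, against 5.602% and 8.60 CPM in adult WT mTEClo. The summed thymocyte markers, with 0 of 8 at zero in each pool, were 120.1 CPM in newborn cTECs and 29.4 CPM in newborn mTEClo, and 4 of 8 were called higher in cTECs (Cd3e, Rag1, Dntt and Lck). Their part in the Snhg11 difference was not tested.

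Between adult mTEC sorts Snhg11 differed by -2.17 (SE 1.04, adjusted p = 0.171, edgeR over pools) and by -2.13 over batches (SE 0.68, adjusted p = 0.0122, called there with 9.26% of genes lower). Adult cTECs had 3.03 times the newborn cTEC level, 665.5 against 219.5 CPM, with newborn batches at 153.6 to 259.03 CPM. This is 1 pool at each age and has no test. For the other RNAs the newborn to adult ratio in cTECs was 1.69 for Snhg1, 1.37 for Kcnq1ot1, 0.962 for Gas5, 0.921 for Neat1 and 0.902 for Malat1. The adult cTEC values of Neat1, Malat1, Kcnq1ot1, Snhg11 and Snhg1 lay outside the range of the newborn batches, Neat1 only just (984.7 against at most 982.4 CPM), and that of Gas5 inside it.

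Of the snoRNA genes inside the hosts, 1 had a row: Gm25129, in Snhg11, with 93 reads in adult cTECs.

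Gas5 was lowest in newborn mTEChi. The newborn mTEChi batches had 42.3 to 63.1 CPM, below the cTEC range of 83.5 to 104.4 and the mTEClo range of 78.6 to 94.6 CPM. Within batches it was lower than in mTEClo by -0.61 (SE 0.09, adjusted p = 0.000504, edgeR). Adult WT mTEChi pools had 99.006, 53.9, 108.8 and 94.997 CPM (89.2 ± 24.2, n = 4), mTEClo pools 72.6, 119.5 and 143.7 CPM (111.9 ± 36.1, n = 3) and cTECs 92.7 CPM, and all overlapped. The lowest mTEChi value came from the female pool. The fitted adult difference of mTEChi from mTEClo was -0.57 (SE 0.32).

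Snhg1 had 28.9 CPM in adult cTECs, 45.1, 40.8, 49.2 and 35.1 CPM in adult WT mTEChi (42.6 ± 6.05, n = 4) and 26.4, 35.6 and 35.97 CPM in mTEClo (32.6 ± 5.44, n = 3). The ranges of the mTEC sorts overlapped slightly. Newborn values were 48.9, 49.1 and 62.04 CPM in cTEC, mTEChi and mTEClo, the last above all adult WT pools. In mTEClo the newborn difference was 0.83 (SE 0.33, unadjusted p = 0.0367, adjusted p = 0.46, edgeR), with 0.70 over batches (SE 0.17, adjusted p = 0.00275), below 2-fold. In newborns the sorts overlapped, at 32.5 to 55.5 CPM in cTEC, 41.5 to 54.8 in mTEChi and 42.2 to 69.8 CPM in mTEClo.

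Of 14 other snoRNA host genes with a row, Snhg15 (1.43, SE 0.32) and Snhg17 (1.17, SE 0.25) were called higher and Snhg18 (-3.02, SE 0.72) and Snhg20 (-1.38, SE 0.30) lower in adult mTEChi than in mTEClo, where 7.59% of all genes were called higher and 4.47% lower. Snhg18 was also called lower in newborn mTEChi (-2.57, SE 0.54), the only one of 13 tested there, beside 19.9% of all genes higher and 12% lower. None of 20 translation genes of the TOP class was called in any comparison (edgeR). At any fold 7 fell and 1 rose in newborn mTEChi against mTEClo (8 at an unadjusted p under 0.05), with a median of -0.16, where 22.8% of all genes fell and 26.3% rose. Of 10 factors of nonsense-mediated decay, Smg6 (-1.20, SE 0.16) and Upf2 (-1.10, SE 0.24) were called lower in adult mTEChi, and Smg6 in newborn mTEChi (-1.28, SE 0.10). Among 17 other long noncoding RNAs, the imprinted RNA H19 had 2.12 to 44.4 CPM in the adult mTEChi pools and at most 0.151 CPM in the mTEClo pools, whereas newborn mTEClo had 165.8 CPM and newborn mTEChi 37.7 CPM. In adult mTEChi against mTEClo, Miat was called higher (3.77, SE 0.86) and Firre lower (-1.08, SE 0.19). In newborn mTEChi, Lncpint (1.32, SE 0.13) and Mir22hg (1.29, SE 0.29) were higher and Mir99ahg (-1.91, SE 0.19) and Pvt1 (-1.19, SE 0.27) lower. Lncpint was also called higher in newborn cTECs than in mTEClo (1.12, SE 0.13), where 2% of all genes were.

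**Figure D4:**
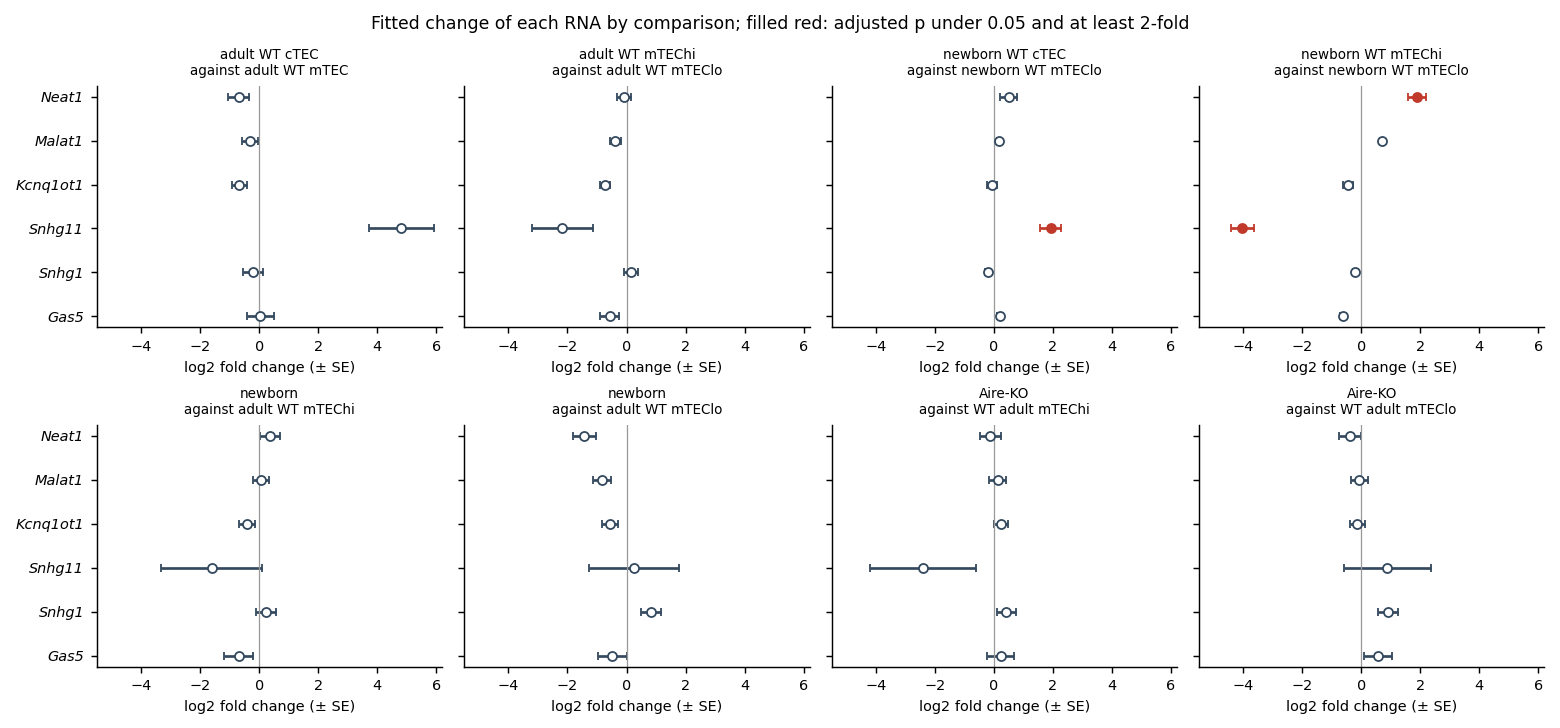
Fitted log2 fold change (± SE) of each RNA in 8 comparisons, with filled red points called at an adjusted p under 0.05 and at least 2-fold. Neat1 (1.89) and Snhg11 (-4.03) in newborn mTEChi and Snhg11 (1.92) in newborn cTECs were the called points, and the wide error of Snhg11 in the pool fits is visible.

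Between Aire-KO and WT cells none of the 6 RNAs was called. In mTEChi the fitted differences of Aire-KO from WT were -0.12 for Neat1 (SE 0.35), 0.13 for Malat1 (SE 0.28), 0.24 for Kcnq1ot1 (SE 0.25), 0.42 for Snhg1 (SE 0.33), 0.23 for Gas5 (SE 0.46) and -2.397 for Snhg11 (SE 1.80). The Aire-KO mTEChi values of Neat1 (1423.3 CPM), Malat1 (5302 CPM), Snhg1 (47.2 CPM), Gas5 (86.6 CPM) and Snhg11 (2.10 CPM) were within the range of the 4 WT pools, apart from Neat1 just below its lowest. Snhg11 was inside that range only through the WT pool of 12 cells (0.250 CPM), and below the other WT pools (12.1 to 24.1 CPM). Its Aire-KO mTEChi batches ranged from 0.0536 to 8.92 CPM. An interval of 2 SE on each side ran from -0.81 to 0.58 for Neat1 and from -0.43 to 0.69 for Malat1. In this comparison edgeR over pools called 0% of genes in either direction, while an unadjusted p under 0.05 held for 2.29% in the higher and 2.87% in the lower direction, and DESeq2 called 41 higher and 620 lower. Aire itself (-5.54, SE 0.55, adjusted p = 0.218, edgeR) was among those not called. Over pools none of the 6 RNAs reached an unadjusted p under 0.05, and DESeq2 called 0 of them. Over batches edgeR called 1.34% of genes higher and 4.92% lower, and none of the 6 RNAs. There Snhg11 (-2.10, SE 0.85, unadjusted p = 0.019) and Snhg1 (0.35, SE 0.16, unadjusted p = 0.0324, edgeR) reached an unadjusted p under 0.05. So did 10% of genes in the higher and 17.7% in the lower direction.

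In mTEClo, Snhg1 had the largest ratio to its error, with 63.5 CPM in Aire-KO against 26.4 to 35.97 CPM in the WT pools (0.91, SE 0.33, unadjusted p = 0.0239, adjusted p = 1.00, edgeR). Gas5 had 172.4 CPM against 72.6 to 143.7 CPM (0.57, SE 0.46), and both Aire-KO values were above every WT mTEClo pool. Neat1 (1334.3 CPM, -0.39, SE 0.36), Malat1 (6408 CPM, -0.07, SE 0.29), Kcnq1ot1 (607.8 CPM, -0.13, SE 0.26) and Snhg11 (98.4 CPM, 0.88, SE 1.48) were inside the WT ranges. Of all genes, 0.00249% were called lower by edgeR over pools, which is Aire alone (-7.84, SE 0.65, adjusted p = 0.0475), and 0% higher. Of the 6 RNAs only Snhg1 reached an unadjusted p under 0.05 in edgeR, beside 2.04% of genes higher and 1.52% lower. DESeq2 called 0 of the 6, and its share of all genes is not given here. Over batches Snhg1 was again alone (0.86, SE 0.21, unadjusted p = 0.000358, adjusted p = 0.075, edgeR), beside 4.85% of genes higher and 3.71% lower. By the call rule 0.233% of genes were higher and 0.0677% lower over batches, and none of the 6 RNAs was called. Tuft-positive cells were 17.5% of the Aire-KO mTEClo cells and 8.29% to 85.1% in the WT pools. Without them the Snhg1 difference was 1.21 (SE 0.38, unadjusted p = 0.0116) and that of Neat1 0.01. No difference between the Aire-KO effects in mTEChi and mTEClo was called for any of the 6 (edgeR and DESeq2). Of all genes, edgeR over pools called 0% in either direction, and the share called by DESeq2 is not given here. Over pools none of the 6 RNAs reached an unadjusted p under 0.05, against 1.82% of genes higher and 1.92% lower. Over batches Snhg11 did (-3.03, SE 1.27, unadjusted p = 0.0234, adjusted p = 0.278, edgeR), beside 5.58% of genes higher and 7.96% lower. Each Aire-KO group is 1 pool, so over pools its spread was taken from the WT pools, and its batches are technical units.

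From cell to cell the 6 RNAs differed in spread. Malat1 had reads in 100% of cells, with the 5th and 95th percentile at 2567 and 11763 CPM and a coefficient of variation (CV) of 0.49. Neat1 was found in 99.9% of cells with a CV of 1.48, from 106.5 CPM at the 5th to 6529 CPM at the 95th percentile and up to 28652 CPM in 1 cell. The median newborn mTEClo cell had 199.02 CPM of Neat1 and the median newborn mTEChi cell 1203.7 CPM. Gas5 had reads in 99.5% of cells (CV 0.76), Kcnq1ot1 in 98.03% (CV 1.14) and Snhg1 in 95.7% (CV 1.00). The CV includes the counting error, which weighs more on the lower RNAs.

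Snhg11 was the exception, with reads in 40.2% of cells. The share was 94.8% in adult and 91.4% in newborn cTECs, 85.5% in newborn mTEClo, 45.7% in adult WT mTEClo, 44.8% in Aire-KO mTEClo, 43.3% in newborn mTEChi, 24.5% in adult WT mTEChi and 9.17% in Aire-KO mTEChi. After thinning every cell to 200000 reads these shares were 90.9%, 84.2%, 67.7%, 28.3%, 40.3%, 26.9%, 12.7% and 3.25% in that order, so Aire-KO mTEClo moved ahead of adult WT mTEClo. Adult WT cTECs spread from 46.97 CPM at the lower to 1155.9 CPM at the upper quartile. In adult WT mTEClo the 95th percentile was 320 CPM while the median cell had no read, and 92.6% of the summed per-cell CPM came from the 10% of cells with the highest values. In adult cTECs that share was 31.6% and in newborn cTECs 39.9%.

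**Figure D5:**
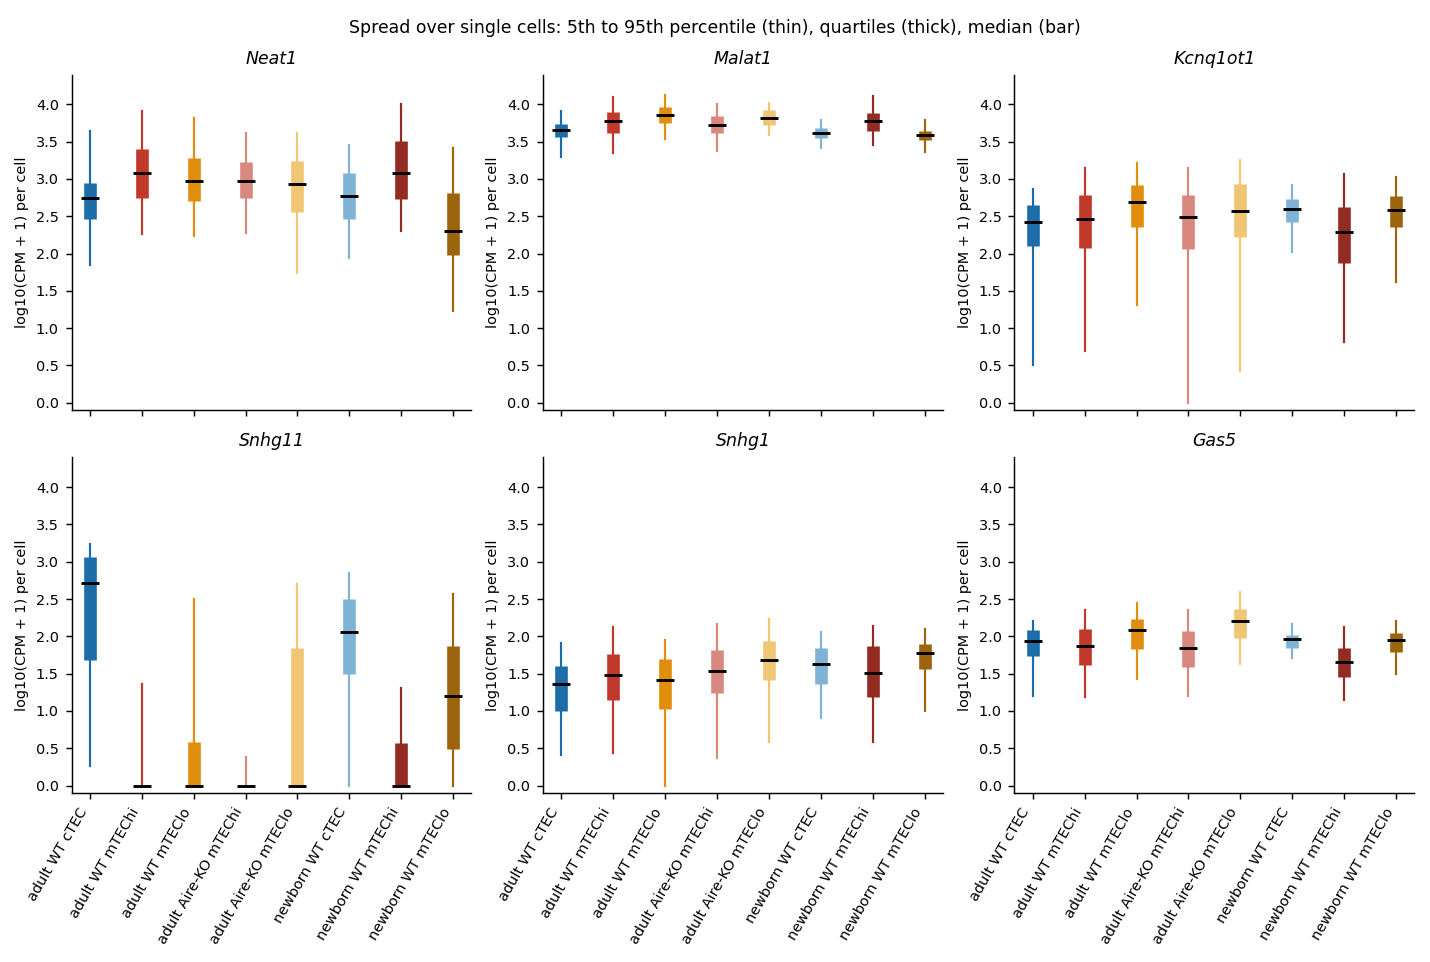
Level per cell as log10(CPM + 1) in the 8 groups: thin lines span the 5th to 95th percentile, thick bars the quartiles and black bars mark the median. Malat1 was tight in all groups, Neat1 was shifted down in newborn mTEClo (median 199.02 CPM), and Snhg11 had a median above 0 in both cTEC groups and newborn mTEClo.

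Cycling-positive cells, with at least 50% of 8 cell cycle genes at 5 or more reads, differed from the other cells of their pool in 4 of the RNAs. In 6 of 6 pools with at least 10 cells of both kinds, Neat1 was lower in cycling-positive cells, at 0.348 to 0.865 times the level of the rest, and Malat1 at 0.572 to 0.889 times. In newborn mTEClo, Neat1 had 317.4 CPM in 47 cycling-positive and 913.4 CPM in 77 other cells. Snhg1 was higher in 6 of 6 pools, at 1.21 to 2.32 times, and Gas5 at 1.02 to 1.77 times. Kcnq1ot1 was higher in 2 of 6 and Snhg11 in 1 of 6. Cells of a pool share their source, so these ratios have no test.

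Tuft-positive cells, compared with the rest in 6 pools, had more Neat1 in 5 (0.973 to 3.43 times), more Kcnq1ot1 in 5 (0.792 to 2.503 times) and more Kcnq1 in all 6 (1.64 to 6.52 times). In the 4-week mTEClo pool Neat1 had 3019 CPM in 39 tuft-positive and 881.2 CPM in 27 other cells. Gas5 was lower in all 6 pools, at 0.713 to 0.984 times, and Snhg11 was higher in 1. In neuroendocrine-positive cells Neat1 was higher in 1 of 6 pools, Kcnq1ot1 in 3, and Gas5 in 1.

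Over the cells within a group the RNAs fell into pairs. The mean Spearman correlation over the 8 groups was 0.44 for Snhg1 with Gas5 (0.33 to 0.53) and 0.38 for Neat1 with Malat1 (0.25 to 0.51), whereas Neat1 with Gas5 was -0.15 (-0.25 to -0.0022). Over all genes with reads in at least 20% of each group's cells (5% for Snhg11), those most like each RNA were named by that mean. For Neat1 they were Malat1, then Irak2, Zc3h12a and Sbno2 (0.33 to 0.31), of which Irak2 and Zc3h12a act in innate immune signalling. For Gas5 they were the ribosomal protein genes Rpl3, Rpl4 and Rps3 and the snoRNA host Zfas1 (0.49 to 0.47), and for Snhg1 the splicing factors Srsf7 and Srsf2 together with Gas5 and Zfas1 (0.44 to 0.43). For Snhg11 they were Syngr1, Gucy1a2, the chemokine Cxcl12 and Abat (0.32 to 0.29). By group these ran from 0.093 to 0.60 for Syngr1 and 0.056 to 0.62 for Gucy1a2. The groups ran from -0.013 to 0.66 for Cxcl12 and from 0.023 to 0.70 for Abat. For Kcnq1ot1 the most alike were Rbm4 and the models Gm43984, Gm37524 and Gm37465 (0.26 to 0.24). Malat1 was most like the mitochondrial ribosomal RNAs mt-Rnr1 and mt-Rnr2 (0.53) and the gene models CT010467.1, annotated as rRNA, and Mir6236 (0.52 and 0.47). These correlations share the depth of each cell and are descriptions without a test.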

How the data were processed

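The 1980 single TECs were adult WT cTEC (77), mTEChi (620) and mTEClo (357), Aire-KO mTEChi (338) and mTEClo (154), and newborn WT cTEC (139), mTEChi (171) and mTEClo (124). They were profiled by RamDA-seq, which copies total RNA over its full length. The authors trimmed reads with fastp 0.20.0, aligned them to mm10/GRCm38 with STAR 2.7.3a, used SAMtools 1.9 and Picard 2.21.1, and counted reads per gene without strand with HTSeq 0.11.2. The deposited read counts are whole numbers per gene and cell, not normalized, and hold cells with over 200000 reads. The labels give 2 runs for 168 cells, each with 1 column, and how the runs were combined is not given in the sources used here. A table of normalized values was not used, nor were any comparisons of the authors. Of 48437 genes, 48263 matched the annotation and 23 had no read. Depth per cell ranged from 203010 to 1823784 reads.

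Counts were summed over the 13 pools and tested with edgeR 4.0.16 (R 4.3.3): TMM scaling, filterByExpr, a group term, quasi-likelihood test, Benjamini-Hochberg adjustment over 40148 genes, 5 residual degrees of freedom. Groups of 1 pool were assumed to vary like the others. Newborn sorts were tested on 15 sums per batch and sort with batch as a block (23349 genes, 8 degrees of freedom), since the labels say that these sums share a batch. Same-batch sums correlated in their deviations from the group means at -0.12 to 0.23 (15 pairs, median 0.10, 8 over 0.1) against a median of -0.03 over 60 pairs from different batches. p-values measure the spread between these sums, which may be technical. Pools were not linked to numbered mice, and age and sex were confounded with sort in part. The test was checked on simulated counts with known changes, most of which it did not call in the comparisons of adult cTECs, newborn and Aire-KO cells with adult WT pools, so an RNA not called there may still differ.

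Alternatives were batches as units, DESeq2 1.42.0, RLE factors, no filter, limma 3.58.1 on mean log values with equal weight per cell, cells thinned to 200000 reads, fits of part of the pools, age and sex as a block, and leaving out each pool or batch. Removing tuft- or cycling-positive cells and the interaction with age were added after the data were seen. The 6 RNAs and the gene lists were chosen with earlier results of these data known. Named besides them were Aire, Kcnq1, up to 4 called genes per list and direction with the largest fold, otherwise the most abundant, and the 4 genes most like each RNA over cells. Psmb11 levels, the split of all pools by Kcnq1 reads, and H19 levels in place of a fold, were chosen after values were seen. Python 3.11.15, NumPy 2.4.6, pandas 2.3.3, SciPy 1.17.1 and matplotlib 3.10.9 were used for levels and figures.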

Additional observations from a re-analysis of the deposited data

Results flagged for a closer look

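In groups of 4 to 10 pool or batch sums, 3 of 42 tests of a sample far from the others passed the 95% limit, and chance flags about 1 in 20. Snhg11 in Aire-KO mTEChi had 8.92 CPM in batch 8 against 0.0536 to 1.17 CPM in the other 3 batches. Gas5 in Aire-KO mTEChi had 137.4 CPM in batch 14 against 69.2 to 79.4 CPM. Snhg1 in newborn mTEClo had 42.2 CPM in batch 18, below the other 4. The newborn effect differed between mTEChi and mTEClo over batches, by 1.40 on the log2 scale for Neat1 (adjusted p = 0.0113, edgeR) and by 0.991 for Malat1 (adjusted p = 0.00027). Over the 13 pools the adjusted p of both was 1.00, so these differences rest on treating batches as units.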

How the results depend on the processing

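Most fitted differences kept their direction and side of the threshold (47 fold values turned sign, 8 newly passed and 1 no longer passed, and 8 counts of called RNAs moved). None of the fold values that changed sign was called. The count of called RNAs went from 0 to 1 (Snhg11) for adult cTEC against mTEC with batches as units, DESeq2 and limma, from 0 to 1 (Snhg11) for adult mTEChi against mTEClo with batches, from 0 to 1 (Neat1) with batches and to 2 (Neat1, and Snhg11 higher at 2.39) with limma for newborn against adult mTEClo, and from 0 to 1 (Neat1) for the interaction with age with batches. The cause was not tested. The share of all genes called by limma is not given beside these counts. Leaving out 1 pool gave 0 in every pool comparison, and leaving out 1 newborn batch gave 0 to 1 for cTEC against mTEClo (0 without batch 20) and 2 for mTEChi against mTEClo.

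Signs turned as follows. With batches as units: Gas5 in cTEC against mTEC -0.11, Neat1 in adult mTEChi against mTEClo 0.24, Neat1 in the Aire-KO interaction -0.053 and Kcnq1ot1 in the age interaction -0.029. With DESeq2 and RLE factors alike: Neat1 in adult mTEChi against mTEClo 0.039 and Malat1 in Aire-KO mTEChi -0.034. With limma: Snhg11 in newborn against adult mTEChi 0.45, Malat1 in Aire-KO mTEChi -0.10 and in the Aire-KO interaction -0.041, Kcnq1ot1 in Aire-KO mTEChi -0.26 and in the age interaction -0.25. With thinned cells: Gas5 in cTEC against mTEC -0.062, Snhg1 in adult mTEChi against mTEClo -0.012, Malat1 in Aire-KO mTEChi -0.062 and in the Aire-KO interaction -0.028. With mTEC pools alone: Malat1 in Aire-KO mTEChi -0.020 and in the Aire-KO interaction -0.0049. Without tuft-positive cells: Neat1 in adult mTEChi against mTEClo 0.45, in Aire-KO mTEClo 0.0055 and in the Aire-KO interaction -0.12, Snhg11 in newborn against adult mTEClo -0.64, Malat1 in Aire-KO mTEClo 0.050 and Kcnq1ot1 in the age interaction -0.075. Without cycling-positive cells: Neat1 0.046 and Snhg1 -0.12 in adult mTEChi against mTEClo and Kcnq1ot1 in the age interaction -0.074. With age and sex as a replicate block (1 degree of freedom): Snhg1 in cTEC against mTEC 0.16, Gas5 in adult mTEChi against mTEClo 0.058, Neat1 0.081 and Gas5 -0.28 in Aire-KO mTEChi and Malat1 in Aire-KO mTEClo 0.12, while Snhg11 in cTEC against mTEC was 3.55 (adjusted p = 0.666, edgeR).

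Leaving out 1 pool, signs turned within these ranges: Gas5 in cTEC against mTEC -0.083 to 0.19, Neat1 in adult mTEChi against mTEClo -0.28 to 0.12, Malat1 in newborn against adult mTEChi -0.034 to 0.12, Snhg11 in newborn against adult mTEClo -0.25 to 1.04, Malat1 in Aire-KO mTEChi -0.046 to 0.13 and mTEClo -0.22 to 0.15, Gas5 in Aire-KO mTEChi -0.029 to 0.28, Malat1 in the Aire-KO interaction -0.018 to 0.36, Gas5 in the age interaction -0.51 to 0.034 and, over newborn batches, Kcnq1ot1 in cTEC against mTEClo -0.13 to 0.041. Snhg11 in adult cTEC against mTEC ranged from 4.56 to 5.21 (adjusted p = 0.0558 without the pool of 12 cells). Neat1 in newborn against adult mTEClo ranged from -1.63 to -1.29. With no replicate block the newborn sorts gave the same counts, 1 and 2. With RLE factors the median of all genes in adult mTEChi against mTEClo moved from 0.27 to 0.41 and in Aire-KO mTEChi from -0.01 to -0.18. Shares of cells with a read moved in 34 of 96 cases with thinning or a minimum of 5 reads, and levels in 15 of 96.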
